A study of Rattus norvegicus with 8 samples.

Results

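The genes described here encode lysosomal membrane proteins, acid hydrolases and their activators, the proton pump that acidifies the lysosome, and the transcription factors Tfeb and Tfe3. They were taken from a fixed list of 38 symbols, chosen with earlier results of these data known. Of these, 37 occurred among the 32623 genes of the count tables. Sgsh, which encodes a sulfamidase, was not among the symbols there. The 37 genes comprise 7 membrane proteins and channels, 10 glycosidases and sulfatases, 6 lipid hydrolases and lipid-binding activators, 4 genes in a class of proteases, a thioesterase and progranulin, 2 transcription factors and 8 genes of the V-ATPase. Their unique molecular identifiers (UMIs, 1 per captured mRNA molecule) were summed by cell type in 8 single-cell libraries of rat spinal cord. The rats were 8-week-old female Wistar animals, and 2 libraries were made for each of 4 groups. Sham rats had a thoracic laminectomy alone. In the mild, moderate and severe groups a 10 g weight fell onto the exposed cord from 12.5, 25 and 50 mm, and 10 mm of cord around the lesion was digested with enzymes 7 days later. All groups had the same surgical exposure and the same antibiotic and analgesic care. The labels number the 2 libraries of a group without saying whether each came from a separate rat, so the p-values below measure the spread between libraries.

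Lysosomes break down material that reaches them by endocytosis, phagocytosis and autophagy. The V-ATPase pumps protons into the lumen so that acid hydrolases can work, Lamp1, Lamp2 and Scarb2 line the membrane, and Npc1 and Npc2 hand cholesterol out of the lumen. Tfeb and Tfe3 are basic helix-loop-helix factors that bind E-box sequences of the so-called CLEAR type in promoters of lysosomal genes. In the injured cord, microglia and infiltrating macrophages take up myelin and cell debris, and Cd68 is a lysosomal glycoprotein commonly used to stain such phagocytes.

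To show the sequence context of the genes, promoter windows of 300 bases from RefSeq (build GRCr8; 250 bases before the start site and 50 after it) were searched for the E-box CACGTG and for its extension TCACGTGA, the core of the CLEAR element. Both strings read the same on both strands, and every TCACGTGA also counts as a CACGTG. Of the 38 listed genes, 30 had a window in the table. CACGTG occurred in 7 of the 30 (23.3%) against 2148 of all 33469 promoters (6.42%). TCACGTGA occurred in 3 of the 30 (10.0%; Lamp1, Atp6v0d1 and Mcoln1) against 260 of all promoters (0.777%). The stretches below show matches in 4 of the genes, 80 bases of each window, read 5′ to 3′ on the gene's strand, with the searched letters in capitals. Lamp1 lies on the minus strand (chr16:83075075-83075154) and carries TCACGTGA at 2 places; its window held 5 matches to CACGTG, of which the printed stretch shows the 2 that lie within TCACGTGA. Atp6v0d1 (minus strand, chr19:50357274-50357353) carries it once. Cd63 (plus strand, chr7:1921900-1921979) and the acid alpha-glucosidase gene Gaa (plus strand, chr10:105028234-105028313) carry CACGTG only.
Lamp1: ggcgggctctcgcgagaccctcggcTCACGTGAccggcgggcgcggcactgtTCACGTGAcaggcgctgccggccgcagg
Atp6v0d1: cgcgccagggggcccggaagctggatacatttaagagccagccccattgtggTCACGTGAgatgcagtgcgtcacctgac
Cd63: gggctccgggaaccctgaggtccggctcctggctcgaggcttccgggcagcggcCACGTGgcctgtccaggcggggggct
Gaa: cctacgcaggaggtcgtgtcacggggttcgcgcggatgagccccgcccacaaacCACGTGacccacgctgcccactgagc
A match is a description of the letters and was not tested for binding. CLEAR sequences are known from promoters of lysosomal genes, so that the higher shares among the listed genes are no result of these data.

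After filtering, 55454 of 68658 barcodes were kept, between 2337 and 10011 per library, with median depths from 2745 to 10841 UMIs per cell. Cells were assigned to types by fixed marker genes, none of which is among the 37. The macrophage/microglia gate held 27916 cells, and subgates divided it into 8275 microglia-type cells, 12230 macrophage-type cells and 7411 undivided cells; 7586 cells (13.7%) met no gate, and neurons (9 cells) and astrocytes (105 cells) were scarce. Pairs of libraries shared 5 to 40 barcodes. The 2 sham libraries differed from each other. Sham replicate 1 had the lowest depth and only 655 macrophages/microglia, of which 33.9% were microglia-type, and neutrophil markers summed to 4243 CPM (counts scaled to 1e6 UMIs) in those cells against 80.5 to 295 CPM in the other 7 libraries. Sham replicate 2 held 2102 macrophages/microglia, 85.7% of them microglia-type, whereas the microglia-type share was 10.8% to 33.4% in the injured libraries. Counts of the 37 genes called for injury are therefore given with and without each sham library. Levels are in CPM of all UMIs of the cell type in a library, and because 3′ counting gives 1 count per molecule they do not scale with transcript length.

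Macrophages/microglia carried the largest summed share of UMIs on the 37 genes. The share was 1.94% ± 0.394 (SD, n = 8 libraries), compared with 1.02% ± 0.171 in oligodendrocytes (n = 8), 0.921% ± 0.136 in dendritic cells (n = 6), 0.681% ± 0.261 in neutrophils (n = 7), 0.559% ± 0.0572 in oligodendrocyte precursors (n = 8), 0.560% ± 0.0872 in fibroblasts (n = 7) and 0.205% ± 0.0639 in T cells/NK cells (n = 7). The neutrophil share was 0.288% in sham replicate 1 and 0.543% to 1.10% in the injured libraries. Median depth of neutrophils was 2579 UMIs in sham replicate 1 and 684.5 to 1679 UMIs in the injured libraries. The part of depth in this difference was not tested. Macrophages/microglia exceeded oligodendrocytes in 8 of 8 libraries, and exceeded each other type in every library that held at least 20 cells of it. Erythroid cells, which lose their lysosomes as they mature and served as the type that should lack these transcripts, held 0.0330% ± 0.0289 (n = 3). Within the macrophage/microglia share a few genes dominated. The tetraspanin Cd63 took 19.0% ± 4.47 of the UMIs on the 37 genes, the sphingolipid activator precursor Psap 17.2% ± 3.44, the sterol carrier Npc2 16.05% ± 3.82, the cysteine protease legumain (Lgmn) 10.1% ± 3.03 and progranulin (Grn) 9.23% ± 1.30 (SD, n = 8).

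**Figure D1:**
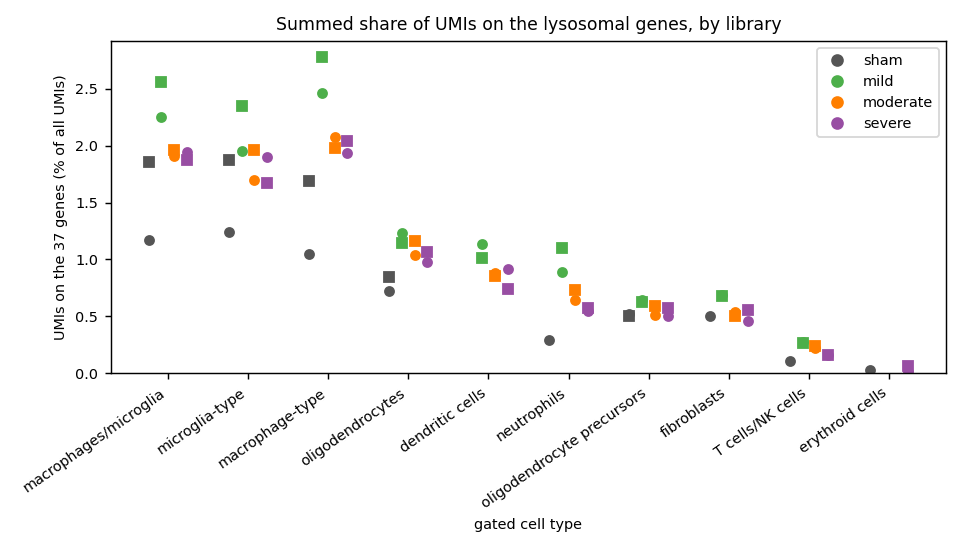
Percentage of all UMIs that fell on the 37 genes (y axis) in each cell type (x axis), 1 point per library with at least 20 cells; colours give the injury group, circles replicate 1 and squares replicate 2. Macrophages/microglia lie between 1.17% and 2.55%, with sham replicate 1 lowest, and erythroid cells reach at most 0.0643%.

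By mean level over libraries, 19 of the 37 genes were highest in macrophages/microglia, 10 in oligodendrocytes, 5 in dendritic cells and 3 in neutrophils. These means do not rest on the same libraries, as dendritic cells had no sham library and neutrophils lacked sham replicate 2. Some margins were within the SD. Gusb stood at 62.3 CPM (SD 21.2) in dendritic cells and 57.8 CPM (SD 17.8) in macrophages/microglia. Tfe3 stood at 1.89 CPM (SD 2.45) in neutrophils and 1.65 CPM (SD 0.745) in macrophages/microglia. The same count over all genes was not made. Macrophages/microglia contributed 64.1% of all UMIs of the kept cells. They contributed 96.6% of the UMIs of Cd68, 95.1% of Lgmn, 94.6% of Atp6v0d2, 93.0% of Npc2 and 92.1% of Grn, but only 53.1% of Npc1 and 46.7% of the acid sphingomyelinase gene Smpd1. For Npc1 and Smpd1 oligodendrocytes contributed 35.3% and 23.8%, against 9.32% of all UMIs. In cells thinned to 1000 UMIs each, a UMI of Lgmn was seen in 20467 of 27066 macrophages/microglia (75.6%, Wilson 95% interval 75.1 to 76.1) against 16 of 1079 erythroid cells (1.48%, 0.915 to 2.40). Cd68 was seen in 53.7% of the thinned macrophages/microglia (53.1 to 54.3; 90.8% before thinning) and 1.39% of the erythroid cells (0.844 to 2.28). Tfeb was seen in 5.58% (5.31 to 5.86) and 0.278% (0.0946 to 0.814), respectively. Such intervals cover counting error only.

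**Figure D2:**
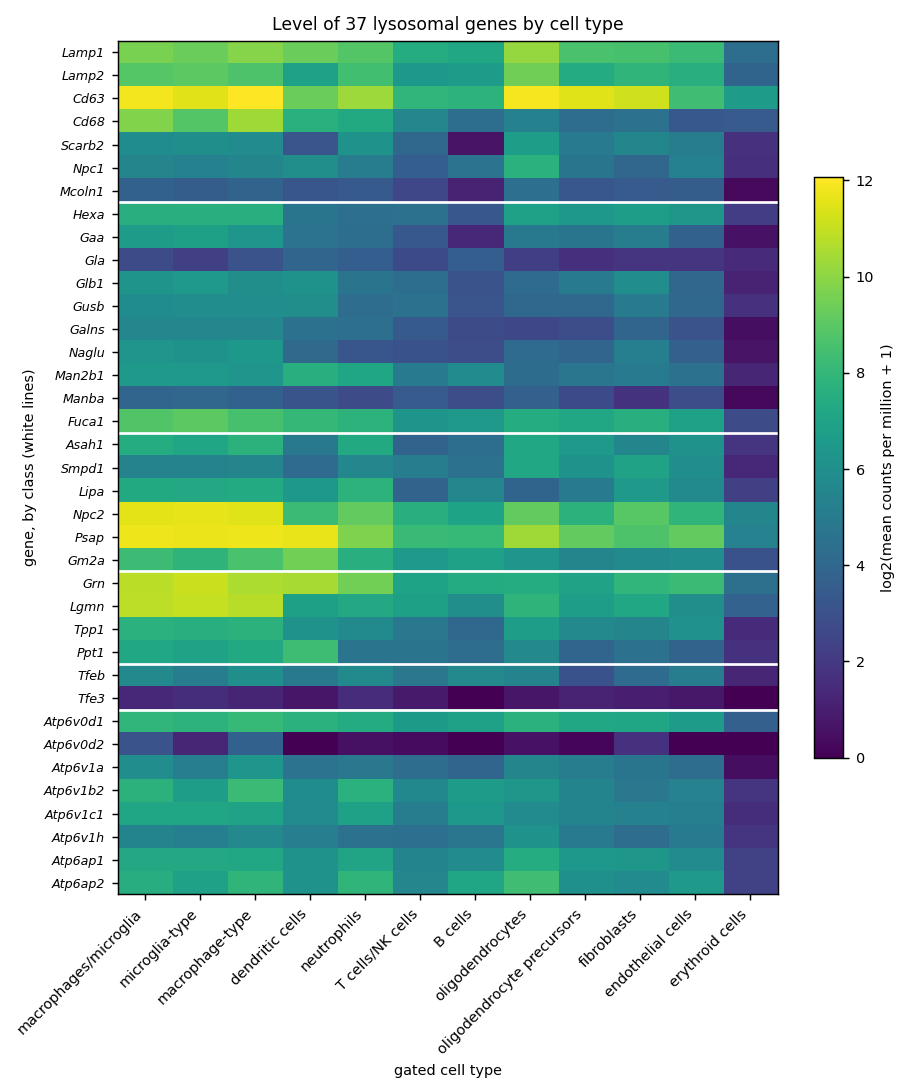
Mean level of each of the 37 genes (rows, grouped by class with white lines) in each gated cell type (columns), as log2(mean CPM + 1) over libraries with at least 20 cells. Cd68, Lgmn and Npc2 are bright in the macrophage/microglia columns, Npc1 and Smpd1 in oligodendrocytes, and the erythroid column is the darkest for most genes.

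The comparison of cell types within libraries asked where each gene was expressed. It used edgeR's quasi-likelihood test on UMIs summed per library and type, with the library as a block and Benjamini-Hochberg adjustment over 11942 genes; 36 of the 37 genes could be tested, Tfe3 being too low. A call means an adjusted p under 0.05. The 36 include Atp6v0d2, which passed the filter on low counts mainly through macrophages/microglia, so that its calls are no support for a difference. In oligodendrocytes 23 of the 36 genes were lower than in macrophages/microglia and 7 were higher, while 32% of all genes tested were lower and 38.6% higher. In oligodendrocyte precursors 35 were lower and 1 higher (all genes: 26.9% and 41.4%), in fibroblasts 33 and 1 (23.2% and 35.3%), in T cells/NK cells 33 and 0 (26.6% and 25.4%), in endothelial cells 32 and 0 (20.5% and 23.1%), in B cells 31 and 0 (20.7% and 17.5%), in dendritic cells 26 and 4 (22.3% and 18.5%) and in neutrophils 21 and 6 (35.4% and 29.3%). The median log2 fold change of the 36 genes was -1.22 in oligodendrocytes against 0.11 for all genes, and -0.70 against -0.13 in neutrophils. With library sizes in place of trimmed-mean scaling the neutrophil split of members became 23 lower and 2 higher. The split of all calls then went from 3496 higher and 4230 lower to 2375 and 5218 in neutrophils, from 4949 and 3210 to 6694 and 2370 in oligodendrocyte precursors, from 2210 and 2668 to 2777 and 1943 in dendritic cells, from 2757 and 2445 to 3672 and 1714 in endothelial cells, and from 2091 and 2472 to 2630 and 1852 in B cells.

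Of the proteases, thioesterase and progranulin, all but Ppt1 were lower in every other type tested than in macrophages/microglia. Lgmn ran from 1317 to 2623 CPM over the 8 macrophage/microglia libraries (median 1825) and from 190 to 256 CPM in oligodendrocytes; the log2 fold change was -3.17 (SE 0.245, adjusted p = 4.08e-17). Grn, whose product is a lysosomal chaperone and a secreted growth factor, ran from 884 to 2753 CPM in macrophages/microglia and from 88.9 to 263 CPM in oligodendrocytes (log2 fold change -3.53, SE 0.24, adjusted p = 5.00e-19). The libraries of the 2 types did not overlap for either gene. Both were also lower in each of the other types tested, with log2 fold changes between -0.73 (Grn, dendritic cells) and -4.96 (Lgmn, B cells). The mean of Grn was 1432 CPM (SD 308) in dendritic cells, against 1815 CPM (SD 542) in macrophages/microglia. The tripeptidyl peptidase gene Tpp1 was lower in all types tested, and the palmitoyl thioesterase gene Ppt1 in all but dendritic cells.

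The lipid-handling genes divided. Npc2 ran from 2018 to 4204 CPM in macrophages/microglia, and from 405 to 710 CPM in oligodendrocytes (log2 fold change -2.55, SE 0.19, adjusted p = 2.35e-17). The lysosomal acid lipase gene Lipa ran from 85.4 to 234 CPM in macrophages/microglia and from 3.80 to 36.8 CPM in oligodendrocytes (-3.80, SE 0.245, adjusted p = 3.43e-20). Smpd1 went the other way, with 28.4 to 57.7 CPM in macrophages/microglia and 90.9 to 202 CPM in oligodendrocytes (1.69, SE 0.14, adjusted p = 1.22e-15), and it was higher in fibroblasts as well (1.45, SE 0.15, adjusted p = 8.37e-13). Its higher call in oligodendrocyte precursors (0.39, adjusted p = 0.0130) turned to -0.092 when no filter on low counts was used. The ceramidase gene Asah1 had a log2 fold change of -0.41 in oligodendrocytes and did not pass the test there.

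Oligodendrocytes matched or exceeded macrophages/microglia mainly in membrane proteins. Npc1, the membrane partner of Npc2, ran from 30.3 to 62.9 CPM in macrophages/microglia and from 99.8 to 299 CPM in oligodendrocytes (log2 fold change 2.06, SE 0.23, adjusted p = 9.62e-12). Scarb2, the receptor that sorts glucocerebrosidase to lysosomes, was also higher (0.75, SE 0.17, adjusted p = 1.27e-04), as was the V-ATPase accessory subunit Atp6ap2 (0.71, SE 0.15, adjusted p = 2.75e-05). Npc1, Smpd1, Scarb2 and Atp6ap2 kept their calls under all 14 alternatives, whereas Lamp2, the lysosomal calcium channel gene Mcoln1 and the V-ATPase subunit Atp6v1h kept theirs under 3, 5 and 7 of them. Lamp1 and Cd63 did not pass; their log2 fold changes were 0.35 and -0.14. Cd68 was the exception among the membrane proteins, at 265 to 1398 CPM in macrophages/microglia and 13.2 to 115 CPM in oligodendrocytes (-4.72, SE 0.37, adjusted p = 7.73e-17).

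Of the glycosidases and sulfatases, 9 of 10 were lower in oligodendrocytes. The mannosidase gene Man2b1 ran from 56.3 to 148 CPM in macrophages/microglia and from 8.56 to 27.8 CPM in oligodendrocytes (log2 fold change -2.41, SE 0.17, adjusted p = 2.66e-18). The N-acetylgalactosamine sulfatase gene Galns ran from 30.7 to 76.4 and from 2.20 to 8.37 CPM (-3.33, SE 0.24, adjusted p = 4.89e-18), and the heparan sulfate glycosidase gene Naglu from 30.3 to 145 and from 7.62 to 27.9 CPM (-2.30, SE 0.19, adjusted p = 1.15e-15). Manba had a log2 fold change of -0.43 and did not pass. Of the V-ATPase genes, 5 (Atp6v0d2 among them) were lower, 2 were higher and Atp6ap1 (0.08) did not pass. Tfeb did not pass in oligodendrocytes (-0.34) or in neutrophils (0.16), and it was lower in oligodendrocyte precursors (-3.35, SE 0.215, adjusted p = 2.52e-20).

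Other immune cells held particular members at the level of macrophages/microglia or above. In dendritic cells the GM2 activator gene Gm2a (520 to 849 CPM, against 105 to 443 CPM in macrophages/microglia; log2 fold change 0.89, SE 0.19, adjusted p = 1.38e-04), Ppt1 (210 to 441 CPM; 0.77, SE 0.20, adjusted p = 0.00178), Man2b1 (0.80, SE 0.18, adjusted p = 2.97e-04) and the alpha-galactosidase gene Gla (1.15, SE 0.33, adjusted p = 0.00368) were higher. The Man2b1 call turned to -0.075 under a stricter cell gate. In neutrophils Man2b1 (0.89, SE 0.17, adjusted p = 1.60e-05), Gla (1.29, SE 0.30, adjusted p = 2.10e-04), Atp6ap2 (0.54), Lipa (0.58), Scarb2 (0.45) and Smpd1 (0.39) were called higher. Of these 6, only Man2b1 and Gla kept the call with library sizes in place of trimmed-mean scaling. Over the 14 alternatives Man2b1 kept it in 14, Gla in 13, Atp6ap2 in 7, Lipa in 4, Smpd1 in 4 and Scarb2 in 3. Smpd1 and Scarb2 were higher in 4 of 7 libraries. Gla stood at 29.7 CPM in neutrophils of sham replicate 1, against 7.62 CPM in its macrophages/microglia. In the injured libraries Gla ran from 3.16 to 22.6 CPM in neutrophils and from 3.12 to 9.17 CPM in macrophages/microglia. It was lower in neutrophils in both severe libraries (6.37 against 6.93 CPM and 3.98 against 6.86 CPM). Neutrophils of the injured libraries held only 140029 to 949516 UMIs of all genes, against 13004073 in sham replicate 1. Their Gla values therefore rest on few UMIs, and differences in single injured libraries carry little weight. Naglu, at 1.06 to 19.8 CPM, was lower (-3.61, SE 0.29, adjusted p = 1.45e-15).

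Within the macrophage/microglia gate, microglia-type and macrophage-type cells were compared inside each of the 8 libraries. This asks how phagocytes with microglia-type markers differ from those with macrophage-type markers and rests on no difference between injury groups. The macrophage-type markers included Cd163 and Lyve1 beside Ccr2, Fn1 and Vcan, and sham libraries also held such cells. The gate therefore does not separate resident from infiltrating macrophages. Of the 37 genes, 19 were lower in microglia-type cells, 3 were higher and 15 did not pass, while 24% of the 12802 genes tested were lower and 25.8% higher; the median log2 fold change was -0.31 for the 37 genes and 0.02 for all genes. With library sizes only, 15 were lower and 8 higher, the median of all genes was 0.23 and that of the 37 genes -0.12, and the split of all calls went from 3306 higher and 3070 lower to 5322 and 2070. The smallest adjusted p-values were in the proton pump and in Cd68: 6 of the 8 V-ATPase genes and 5 of the 7 membrane genes were lower in microglia-type cells and none was higher. The 6 include Atp6v0d2, which passed the filter on low counts mainly through macrophage-type cells. Its call is therefore no support for a difference.

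Cd68 ran from 132 CPM (sham replicate 1) to 865 CPM (mild replicate 2) in microglia-type cells, and from 635 CPM (sham replicate 1) to 1928 CPM (mild replicate 2) in macrophage-type cells. It was lower in microglia-type cells in 8 of 8 libraries, with a log2 fold change of -1.79 (SE 0.13, adjusted p = 1.48e-07). The V-ATPase subunit genes Atp6v1b2 (-1.62, SE 0.12, adjusted p = 2.16e-07) and Atp6v1a (-1.50, SE 0.11, adjusted p = 2.24e-07), which form the catalytic head of the pump, were lower by a similar amount. Atp6v1a ran from 16.2 to 82.2 CPM in microglia-type and from 47.5 to 138 CPM in macrophage-type cells, and Atp6v1b2 from 63.7 to 195 and from 102 to 447 CPM. Each was lower in all 8 libraries. Gm2a (-0.96, SE 0.087, adjusted p = 1.07e-06), Atp6ap2 (-1.20, SE 0.12, adjusted p = 3.15e-06) and Asah1 (-0.86, SE 0.092, adjusted p = 4.96e-06) followed, as did Tfeb, which ran from 17.9 to 51.1 CPM in microglia-type and from 23.9 to 116 CPM in macrophage-type cells (-1.16, SE 0.15, adjusted p = 2.25e-05).

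The genes called lower also included Atp6v0d2, which is described by its counts. It is a tissue-restricted membrane subunit of the V-ATPase known from osteoclasts and macrophages. Its UMIs in the 6 injured libraries numbered 24, 178, 9, 0, 0 and 1 in microglia-type cells (mild, moderate and severe, in replicate order) and 870, 1082, 508, 114, 12 and 136 in macrophage-type cells. Both sham libraries had 0 UMIs in macrophage-type cells, of which they held few, and sham replicate 1 had 1 in microglia-type cells. The 3 genes that were higher in microglia-type cells were the beta-galactosidase gene Glb1 (0.35, SE 0.093, adjusted p = 0.00625), Grn (0.35, SE 0.084, adjusted p = 0.00332) and the fucosidase gene Fuca1 (0.28, SE 0.098, adjusted p = 0.0287). Genes that did not pass included Lamp2 (0.12), Lgmn (0.04), Npc2 (0.02), Scarb2 (0.01), Psap (-0.21), Hexa (-0.11), Atp6v1c1 (-0.04) and Tfe3 (0.35). The calls of 17 of the 22 genes held under all 14 alternatives. Among these, a limit of at least 100 cells and the removal of sham replicate 2 gave the same fit.

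**Figure D3:**
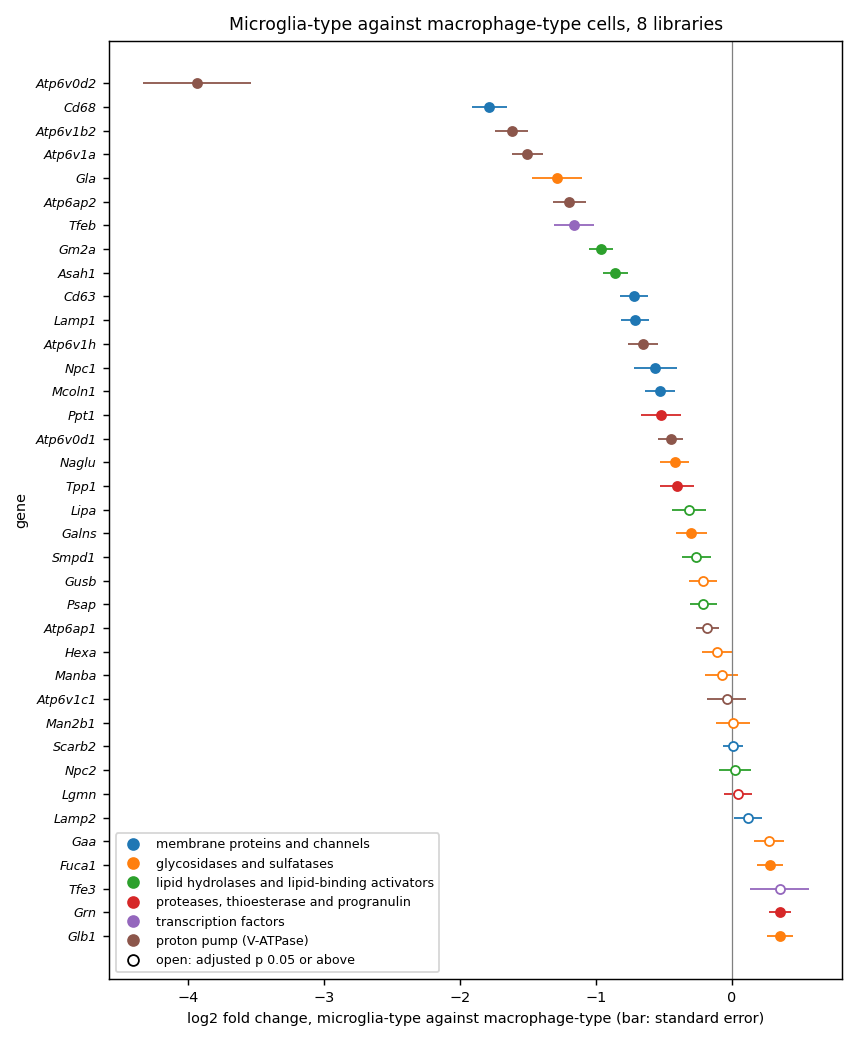
Log2 fold change of microglia-type against macrophage-type cells (x axis) for the 37 genes (y axis) over 8 libraries; bars are standard errors, colours are gene classes, and filled points passed an adjusted p of 0.05. Points run from -3.94 for Atp6v0d2 to 0.35 for Glb1, and 19 of the 22 filled points lie left of 0. The Atp6v0d2 point is no support for a difference, as the gene passed the filter on low counts mainly through macrophage-type cells.

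Injury was compared with sham in macrophages/microglia, with all 8 libraries in 1 fit of 13498 genes. Cd68 was called higher in the mild, moderate and severe groups, and Cd63 and Tfeb in the mild and severe groups. Atp6v0d1 and Atp6v1b2 were called higher in the severe group only. For each of these genes all 6 injured libraries lay above both sham libraries, so that a missing call does not set a group apart. The counts below also hold Atp6v0d2 in each group, a gene that passed the filter on low counts only through the injured libraries, so that its calls are no support for a difference. No member was called lower in any of the 3. The counts were 4 of 37 higher in mild against sham (3.76% of all genes higher, 2.98% lower), 2 of 37 in moderate (2.05% higher, 0.859% lower) and 6 of 37 in severe (5.7% higher, 3.35% lower). None of the glycosidases, sulfatases, lipid hydrolases, proteases or progranulin passed in these 3 comparisons. The median log2 fold change of the 37 genes was 0.68, 0.27 and 0.71 in mild, moderate and severe, against -0.01, 0.01 and -0.08 for all genes. When only library sizes were used, the median of all genes in severe against sham moved to -0.58 and that of the 37 genes to 0.22, 4 members were higher, and the split of all calls went from 769 higher and 452 lower to 454 and 2065; in mild against sham that split went from 507 and 402 to 378 and 466.

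Cd68 stood at 265 and 337 CPM in the sham libraries, 1121 and 1398 CPM in mild, 1064 and 1161 CPM in moderate, and 779 and 1003 CPM in severe. All 6 injured libraries lay above both sham libraries. The log2 fold changes were 2.15 (SE 0.32, adjusted p = 0.0182), 1.90 (SE 0.32, adjusted p = 0.0303) and 2.05 (SE 0.32, adjusted p = 0.0121). Fold changes here and in the next paragraph use trimmed-mean scaling, and CPM does not. In severe against sham they therefore exceed the ratios of the printed CPM. Cd63, a tetraspanin of late endosomes and lysosomes, stood at 2175 and 1750 CPM in sham, 3971 and 4917 in mild, 4078 and 4790.5 in moderate, and 3632 and 4173 in severe, again without overlap. Its log2 fold change was 1.29 (SE 0.275, adjusted p = 0.0349) in mild and 1.51 (SE 0.28, adjusted p = 0.0196) in severe. Tfeb stood at 20.9 and 27.9 CPM in sham, 84.5 and 71.8 in mild, 57.7 and 48.6 in moderate, and 46.4 and 38.9 in severe. The Tfeb groups did not overlap with sham; log2 fold changes were 1.74 (SE 0.29, adjusted p = 0.0208) in mild and 1.26 (SE 0.29, adjusted p = 0.0366) in severe.

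Members of the proton pump behaved unequally. Atp6v0d2 had 1 UMI in each sham library, 975 and 1553 in mild, 605 and 115 in moderate, and 12 and 176 in severe. With the UMIs of both libraries pooled, its share of all UMIs was 309 times that of sham in mild (exact 95% interval of the ratio 85.4 to 2551), 85.1 times in moderate (23.5 to 704) and 31.2 times in severe (8.51 to 259), intervals that cover counting error only. The ratios of the mean CPM of the 2 libraries were 188, 46.9 and 14.2. They were 116, 28.9 and 8.79 against sham replicate 1 alone and 497, 124 and 37.6 against sham replicate 2 alone, so that their size depends on the 1 UMI of each sham library. Atp6v0d1, the ubiquitous form of the same subunit, stood at 121 and 175 CPM in sham, 300 and 313 in mild, 252 and 253 in moderate, and 296 and 276 in severe. Its log2 fold change in severe was 1.41 (SE 0.30, adjusted p = 0.0295). Atp6v1b2 stood at 78.0 and 93.1 CPM in sham, 291 and 216 in mild, 188 and 372 in moderate, and 317 and 147 in severe. Its log2 fold change in severe was 1.90 (SE 0.45, adjusted p = 0.0405). Neither gene was called in mild or moderate, though no injured library overlapped with sham. Atp6v1c1, another pump subunit, stood at 158 and 154 CPM in sham and 114 to 145 CPM in the injured libraries and did not pass the test.

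**Figure D4:**
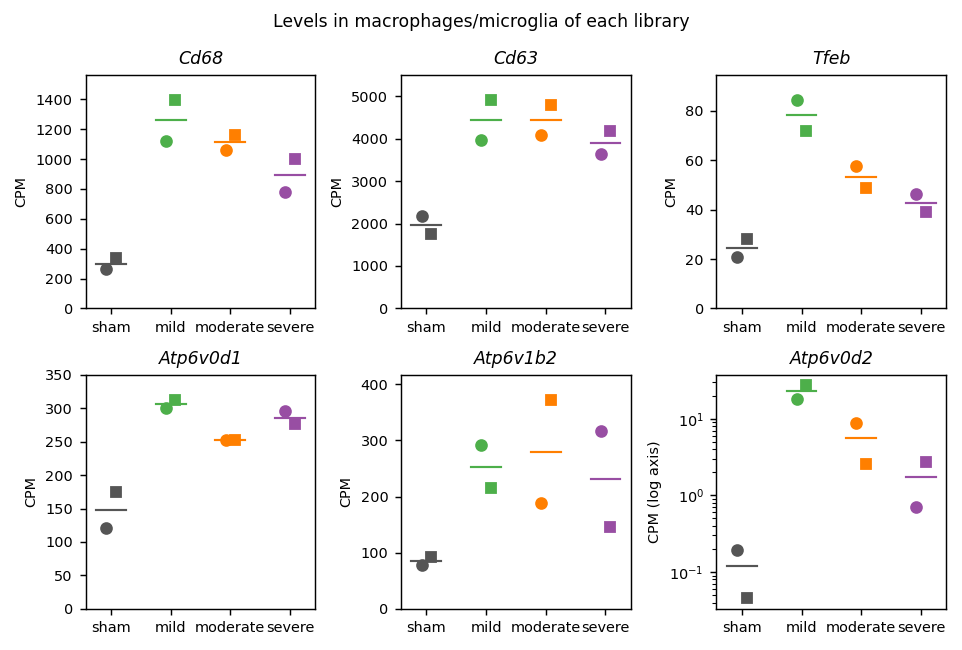
Level in macrophages/microglia (y axis, CPM; log axis for Atp6v0d2) by injury group (x axis) for the 6 genes called in at least 1 injured group; circles are replicate 1, squares replicate 2, and horizontal lines the mean of the 2. In each panel both sham libraries lie below the 6 injured ones.

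Without a test, 10 of the 37 genes had all 6 injured libraries above both sham libraries in macrophages/microglia, against 8.52% of all genes with at least 50 UMIs, and 3 genes (Lamp2, Tfe3 and Atp6v1c1) had all 6 below, against 15.9%. The 10 include Atp6v0d2, which reached 50 UMIs only through the injured libraries. Lamp2 stood at 525 and 727 CPM in sham and 381 to 496 CPM in the injured libraries. For other members the 2 sham libraries lay far apart or the groups overlapped. Psap stood at 1368 and 3752 CPM in the sham libraries and 2660 to 4896 CPM in the injured ones. Hexa, which encodes a hexosaminidase subunit, stood at 38.1 and 268 CPM in sham and 119 to 290 CPM in the injured libraries. Lgmn stood at 1939 and 1649 CPM in sham and 1317 to 2623 CPM in the injured libraries.

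The numbers of calls fell when an injured library was left out, among the 37 genes and among all genes. The median log2 fold change of the 37 genes moved more when a sham library was left out. Without sham replicate 1 it was 0.17, -0.001 and 0.39 in mild, moderate and severe. Without sham replicate 2 it was 1.28, 1.09 and 1.23. No member was called in mild against sham without mild replicate 1 or 2, none in moderate against sham without any 1 of the 6 injured libraries, and none in severe against sham without severe replicate 2; 1 was called there without severe replicate 1, mild replicate 1 or mild replicate 2. In mild against sham the calls over all genes went from 507 higher and 402 lower to 24 and 2 without mild replicate 1 and to 18 and 3 without mild replicate 2, while the median log2 fold change of the 37 genes was 0.73 and 0.64. In moderate against sham they went from 277 and 116 to between 9 and 118 higher and 0 and 33 lower, with medians from 0.22 to 0.42. In severe against sham 243 genes were higher and 73 lower without severe replicate 2 (median 0.79). Leaving out sham replicate 2 gave 20, 12 and 20 higher members in mild, moderate and severe, and 965, 480 and 1267 higher genes in all. Leaving out sham replicate 1 gave 4 higher and 1 lower, 3 higher and 2 lower, and 3 higher members, and 979 higher and 1037 lower, 741 and 649, and 978 and 865 genes in all.

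The number called also changed with the sham library left out when the injured groups were averaged. For the mean of the 3 injured groups against sham, a comparison added after the data were seen, 7 of 37 were higher and none lower (all genes: 5.6% higher and 6.06% lower): Cd68, Cd63, Tfeb, Atp6v0d1, Atp6v0d2, Atp6v1a and Atp6v1b2. Here too Atp6v0d2 passed the filter on low counts only through the injured libraries, so that its call is no support for a difference. Without sham replicate 2 the count was 18 higher (950 genes higher and 743 lower in all, against 756 and 818 with both), and without sham replicate 1 it was 5 higher and 2 lower (897 and 1126). The median log2 fold change of the 37 genes was 0.48 with both sham libraries, 1.119 without sham replicate 2 and 0.07 without sham replicate 1. Cd68 kept its call whichever library was left out, with log2 fold changes from 1.74 to 2.45 and adjusted p of at most 0.0305. Tfeb kept its call in 7 of 8 such fits (1.07 to 1.84) and Cd63 in 5 of 8 (1.27 to 1.42). Sham replicate 1 was also the library with the fewest macrophages/microglia, the lowest depth and the highest neutrophil-marker level, and the part of these in the result was not tested.

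**Figure D5:**
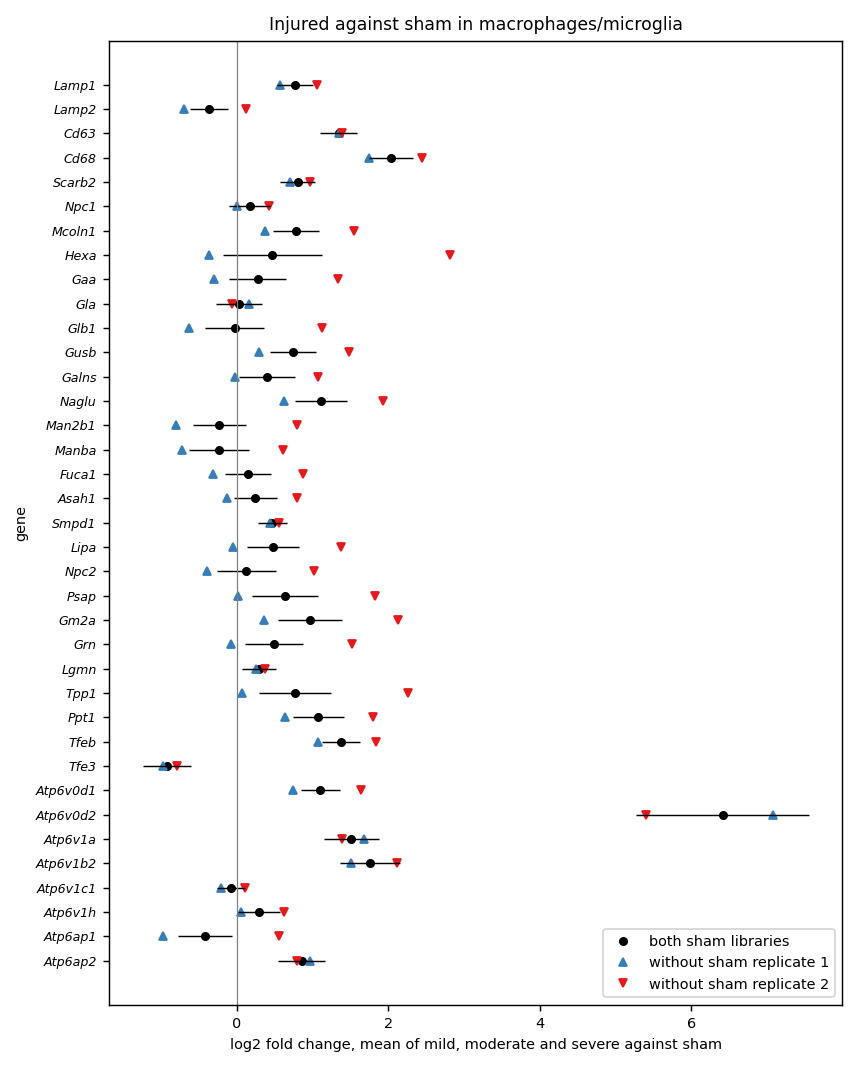
Log2 fold change of the mean of mild, moderate and severe against sham in macrophages/microglia (x axis) for the 37 genes (y axis); black circles use both sham libraries with bars for the standard error, blue triangles leave out sham replicate 1 and red triangles leave out sham replicate 2. The 3 estimates lie close together for Cd63 (1.34, 1.35 and 1.39) and far apart for Hexa, and the fitted Atp6v0d2 values rest on 1 UMI in each sham library.

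The make-up of the gate also differed between sham and injured libraries. Macrophage-type cells, which carried more Cd68, Tfeb and pump transcripts, were 17.9% and 2.43% of the gate in sham. In the injured libraries they were 35.7% to 68.1% of it. The part of this make-up in the injury results was not tested. The microglia-type set holds only cells with detected markers such as P2ry12, Tmem119 and Cx3cr1, so that microglia low in these markers are outside it. In microglia-type cells alone, none of the 37 genes passed for injured against sham in edgeR's test (0.584% of all genes higher, 1.4% lower). Of the 37, 7 (18.9%) had an unadjusted p under 0.05 in that test, as did 23.4% of all genes. Cd68 stood there at 132 and 292 CPM in sham and at 556, 865, 467, 668, 331 and 367 CPM in the injured libraries, without overlap (log2 fold change 1.31, SE 0.40, adjusted p = 0.105). Tfeb stood at 17.9 and 26.1 CPM in sham and 18.7 to 51.1 CPM in the injured libraries, with overlap (0.66, SE 0.27, adjusted p = 0.184). In microglia-type cells 3 genes (Cd63, Cd68 and Atp6v0d1) lay above sham in all 6 injured libraries, against 6.67% of all genes, and 4 (Lamp2, Gla, Tfe3 and Atp6v1c1) lay below, against 10% of all genes. Without sham replicate 2, 12 members passed in these cells, with 594 genes higher and 577 lower in all, and without sham replicate 1, 2 did, both lower, with 264 and 639 genes in all.

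In macrophage-type cells 3 of 37 genes were higher in injured libraries (2.12% of all genes higher, 2.54% lower). These were Ppt1 (45.9 and 97.2 CPM in sham, 152 to 239 CPM in injured; log2 fold change 1.69, SE 0.40, adjusted p = 0.0426), Cd63 (2042 and 2372 CPM in sham, 3964 to 5886 CPM in injured; 1.39, SE 0.28, adjusted p = 0.0260) and Atp6v0d1 (135 and 177 CPM in sham, 253 to 355 CPM in injured; 1.19, SE 0.23, adjusted p = 0.0247). The sham libraries held 117 and 51 such cells. Cd68 stood at 635 and 1115 CPM in sham and 865 to 1928 CPM in injured libraries, with overlap (0.91, SE 0.34, adjusted p = 0.150). All 6 injured libraries lay above sham for 7 members (12.3% of all genes), and none lay below (11.4% of all genes). The 7 include Atp6v0d2, which had 0 UMIs in both sham libraries and entered the count only through the injured ones. Any UMI in an injured library puts that gene above sham, so that its place among the 7 is no support for a difference. No member passed without sham replicate 1 (10 genes higher and 57 lower in all), and 18 did without sham replicate 2 (415 and 422).

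Severity was compared as severe against mild, in the same fit of all 8 libraries. None of the 37 genes passed in edgeR's test (1.39% of all genes higher, 0.874% lower); 3 (8.11%) had an unadjusted p under 0.05, against 20.2% of all genes, and DESeq2 called 1 higher and 1 lower, with 686 and 450 genes in all. Without either sham library 1 member was higher and 1 lower, with 609 to 612 genes higher and 465 to 477 lower in all. Atp6v0d2 stood at 18.2 and 27.2 CPM in mild, 8.77 and 2.54 CPM in moderate, and 0.711 and 2.72 CPM in severe, so that the mild and severe libraries did not overlap (log2 fold change -3.23, SE 0.75, adjusted p = 0.0700). Tfeb showed the same order of group means, 78.2, 53.2 and 42.6 CPM, with neighbouring groups that did not overlap, but severe against mild did not pass (-0.48, adjusted p = 0.376). With library sizes in place of trimmed-mean scaling the median of all genes in this comparison moved from -0.04 to -0.44, and the split of all calls from 187 higher and 118 lower to 150 and 503.

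Of 59 testable genes in a wider list of lysosomal genes, 11 were higher in mild, 6 in moderate and 14 in severe against sham, and 1 was lower in severe. These are 18.6%, 10.2% and 23.7% of the list higher, beside 3.76%, 2.05% and 5.7% of all genes. The list was counted with both sham libraries only. It was chosen with earlier results of these data known, so that counts on it are no independent support. The genes of smallest adjusted p were the phospholipase D family member Pld3 (log2 fold changes 2.69, 2.21 and 3.09), the mannose 6-phosphate receptor Igf2r (2.87, 3.16 and 3.18), which sorts hydrolases to lysosomes, and the membrane glycoprotein Gpnmb in mild and moderate (3.01 and 2.86) or the acid phosphatase Acp5 in severe (3.59). In microglia-type against macrophage-type cells 31 of the 59 were lower (52.5%, against 24% of all genes) and 9 higher (15.3%, against 25.8%), led by Igf2r (-2.48), Acp5 (-2.82) and the sorting receptor Sort1 (2.48).

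Oligodendroglia were examined for the mean of the 3 injured groups against sham. Sham replicates 1 and 2 held 1731 and 42 oligodendrocytes, and 56 and 71 oligodendrocyte precursors. In oligodendrocytes none of the 35 testable members passed (10189 genes; 1% higher, 2.3% lower), while 12 (34.3%) had an unadjusted p under 0.05, against 23.5% of all genes, and DESeq2 called 1 higher and 1 lower, with 163 and 194 genes in all. Without sham replicate 2, 9 members were higher (361 genes higher and 743 lower in all), and without sham replicate 1 none passed (0 and 5). Cd63 came nearest, with 2131 and 1840 CPM in sham and 2829 to 5807 CPM in the injured libraries, without overlap (log2 fold change 1.14, SE 0.27, adjusted p = 0.0509). Npc1 lay the other way, at 293 and 299 CPM in sham and 99.8 to 236 CPM in the injured libraries (-0.75, SE 0.19, adjusted p = 0.0593). In oligodendrocyte precursors 1 of 35 passed (11695 genes; 3.74% higher, 4.33% lower). This was Asah1, the acid ceramidase gene, at 162 and 148 CPM in sham and at 75.5, 76.8, 47.9, 70.0, 93.3 and 52.4 CPM in the injured libraries, without overlap (-1.02, SE 0.24, adjusted p = 0.0212). Without sham replicate 2, 3 members were higher in precursors (756 genes higher and 662 lower in all), and without sham replicate 1, 1 was lower (69 and 68). The Asah1 call was lost without sham replicate 1, sham replicate 2, mild replicate 1 or severe replicate 2, where its adjusted p was at most 0.0981. Members that did not pass in precursors included Scarb2 (-0.90, adjusted p = 0.0538), Grn (0.84, adjusted p = 0.0684), Atp6ap1 (-0.84, adjusted p = 0.0638) and Cd68 (2.47, adjusted p = 0.0640). Cd68 was low in these cells, at 0 and 6.17 CPM in sham and 1.54 to 40.5 CPM in the injured libraries. With library sizes only, 3 members were lower in precursors, and the split of all calls went from 437 higher and 506 lower to 314 and 690.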

How the data were processed

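The deposited files hold raw UMI counts per gene and barcode; the authors made these counts from Chromium 3′ V3 reads aligned to Rnor_6.0, with Cell Ranger 5.0.1 named in the file headers. Each UMI is 1 molecule, so levels do not scale with transcript length, and the values were not normalized. The members and lists were chosen with earlier results of these data known. Barcodes with over 10% mitochondrial UMIs, the 7.7% with the highest Scrublet doublet scores in each library (scanpy 1.11.5, Python 3.11.15) and those beyond the mean ± 2 SD of UMIs or genes were removed. Cells were typed by at least 3 detected markers of a fixed list with a margin of 0.1, and microglia-type and macrophage-type by at least 2. Kept UMIs summed to between 23595917 and 99782724 per library. Counts were summed per library and type with at least 20 cells and tested with edgeR 4.0.16 (R 4.3.3; trimmed-mean scaling, filterByExpr, quasi-likelihood test) over all genes, with Benjamini-Hochberg adjustment and a threshold of 0.05. Injury was fitted with all 8 libraries and no block, and types within libraries with the library as a block. The code was tested on simulated data.

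Every member could be named; values in every library were given for members past the threshold, and for at most 8 per comparison, and of the wider list at most 3 genes per comparison. Alternatives were DESeq2 1.42.0, library-size scaling, no filter on low counts, a fit of only the groups compared, a replicate block, other cell filters and gates, and each library left out. Fits of microglia-type or macrophage-type cells alone and of the mean of the 3 injured groups were added after the data were seen. Intervals cover counting error only. Types with fewer than 20 cells in a library were left out there, and the erythroid comparison by edgeR was not used because its calls changed with scaling (24 members lower, against 36 with library sizes).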

Additional observations from a re-analysis of the deposited data

Results flagged for a closer look

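Npc1 lay on opposite sides of sham in 3 sets of cells, with no overlap between the 2 sham and 6 injured libraries in each. In macrophage-type cells it stood at 28.5 to 32.4 CPM in sham and 37.4 to 65.4 CPM in injured libraries, a log2 ratio of means of 0.69. In oligodendrocytes it stood at 293 to 299 CPM in sham and 99.8 to 236 CPM in injured libraries (-0.71), and in oligodendrocyte precursors at 31.4 to 35.4 and 15.4 to 28.7 CPM (-0.60). In the whole macrophage/microglia gate (42.6 and 44.8 CPM in sham, 30.3 to 62.9 CPM in injured) and in microglia-type cells (51.4 and 45.4 CPM, 22.6 to 59.2 CPM) the groups overlapped. The sham libraries held only 117 and 51 macrophage-type cells and 56 and 71 oligodendrocyte precursors. Their Npc1 values in these cells rest on few UMIs, so that counting error alone could bring an overlap. The difference between the cell types was not tested, and none of the 3 changes passed edgeR's test. Of all genes with at least 50 UMIs, 12.3% lay above sham without overlap in macrophage-type cells. The shares that lay below were 7.19% in oligodendrocytes and 12.7% in oligodendrocyte precursors.

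By CPM, Atp6v1c1 also lay on opposite sides of sham. It stood at 154 to 158 CPM in sham and 114 to 145 CPM in injured libraries in macrophages/microglia (log2 ratio of means -0.28), at 154 to 197 and 112 to 148 CPM in microglia-type cells (-0.44), and at 45.3 to 46.2 and 51.1 to 70.4 CPM in oligodendrocytes (0.33). None of these changes passed edgeR's test with trimmed-mean scaling. Its log2 fold changes were -0.079 (SE 0.18, adjusted p = 0.796), -0.35 (SE 0.19, adjusted p = 0.290) and 0.36 (SE 0.21, adjusted p = 0.328), in the same order. Macrophage-type cells, which are part of the first set, did not share the lower level: 71.6 and 132 CPM in sham and 111 to 147 CPM in injured libraries, with overlap (edgeR log2 fold change 0.61, SE 0.27, adjusted p = 0.220). This difference was not tested either. Of all genes with at least 50 UMIs, 15.9% lay below sham without overlap in macrophages/microglia and 10% in microglia-type cells. In oligodendrocytes 5.77% lay above, and sham replicate 2 held only 42 of these cells.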

How the results depend on the processing

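The 2 libraries per group limit the injury comparisons most. Of the 4, 2 and 6 members called in mild, moderate and severe against sham, 0, 0 and 0 kept their call under every alternative. Counts of members called in mild, moderate and severe against sham (4, 2 and 6) were 12, 6 and 12 with DESeq2, 13, 7 and 11 with no filter on low counts, and 0, 0 and 0 with only the 2 groups compared, a fit with few residual degrees of freedom. The 12 in mild with DESeq2 were 11 higher and 1 lower. Calls over all genes moved as well. DESeq2 gave 1114 higher and 1214 lower in mild, 807 and 685 in moderate, and 1355 and 1131 in severe. With no filter they were 1247 and 1259, 1067 and 856, and 1342 and 1289. With only the 2 groups compared they were 0 and 0, 0 and 0, and 110 and 46. Members called numbered 0, 0 and 0 in microglia-type cells only. Genes in all were 96 higher and 169 lower, 17 and 11, and 107 and 70. In macrophage-type cells only, 3, 0 and 3 members were called. There 297 genes were higher and 306 lower in mild, 31 and 68 in moderate, and 399 and 321 in severe. Moderate against sham gave 1 member with a mitochondrial limit of 20% (267 genes higher and 108 lower). It gave 4 with the stricter gate (422 and 193). Severe against mild (0) gave 2 with DESeq2, with no filter and with only the 2 groups compared, and 1 with library sizes, with the stricter gate, with no limits on UMIs and genes and in macrophage-type cells only. In the settings with 2 calls, genes in all were 686 higher and 450 lower, 766 and 657, and 634 and 449. In those with 1 call they were 150 and 503, 236 and 146, 200 and 127, and 401 and 279. Injured against sham gave 2, 9 and 0 in oligodendrocytes with DESeq2, no filter and library sizes, and 6, 5 and 3 in precursors. In oligodendrocytes the genes in all were 163 higher and 194 lower, 556 and 1417, and 89 and 244. In precursors they were 600 and 790 with DESeq2. With each library left out the members called ranged from 0 to 20 in mild, 0 to 12 in moderate, 0 to 20 in severe, 0 to 2 in severe against mild, 2 to 18 for all injured, 0 to 12 and 0 to 18 in microglia-type and macrophage-type cells, 0 to 9 in oligodendrocytes and 0 to 3 in precursors. Values turned sign in 3 cases: Atp6v0d2 in severe against sham (-0.040 in microglia-type cells only), Smpd1 in precursors (-0.092 with no filter) and Man2b1 in dendritic cells (-0.075 with the stricter gate); the cause was not tested. With cells thinned to 500 UMIs instead of 1000, the mean share of macrophages/microglia with a UMI fell from 47.4% to 29.7% for Cd68, 74.4% to 53.3% for Lgmn, 88.3% to 72.5% for Psap, 5.003% to 2.55% for Tfeb and 3.86% to 1.98% for Smpd1.

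The replicate numbers were not taken as pairing the libraries, since the correlations of deviations between same-numbered libraries ran from -0.19 to 0.25 over the 6 pairs of groups. With the replicate number as a block, 3, 1 and 3 members were called in mild, moderate and severe against sham and 0 in severe against mild. Over all genes 243 were higher and 149 lower in mild, 147 and 39 in moderate, and 522 and 245 in severe. Severe against mild gave 113 and 59.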
